A study of Homo sapiens with 9 samples.

Results

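The 10 genes described here belong to the transcriptional output of the Hippo pathway: the coactivators YAP1 and WWTR1 (which encodes TAZ), the DNA-binding partners TEAD1 and TEAD4, and the target genes LATS2, AJUBA, AMOTL2, CTGF, CYR61 and ANKRD1. They were taken by gene symbol from 57736 rows of gene counts, of which 14614 had enough reads to be tested. All 10 passed that filter. The genes were chosen from measured values of the same libraries, because ANKRD1 was higher in PHF8-targeted cells while CTGF differed by another amount. Their fold changes are therefore given as descriptions, without p-values.

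RNA-seq was performed on SKMEL-147 cells, an established human melanoma line, in 3 groups of 3 libraries that carry the letters A, B and C. The study's methods describe biological replicates, Cas9-expressing cells and lentiviral delivery of single guide RNAs (sgRNAs) with a GFP marker, and mention no clone isolation for these groups. The controls received a scrambled guide (sgScr) and the other groups a guide against PHF8 (sgPHF8-1 or sgPHF8-3). PHF8 is a histone demethylase that removes repressive methyl marks. Cas9 and the viral vectors were thus shared by all 3 groups, and a pool of transduced cells can hold unedited cells, so that fewer cells with a transcript and less transcript per cell cannot be told apart. The comparisons ask how loss of PHF8 alters transcription in these cells. Both guide groups were set against the same 3 sgScr libraries, so those comparisons are not independent of each other.

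In the Hippo pathway, a kinase cascade ending in LATS1 and LATS2 phosphorylates YAP and TAZ, which keeps them in the cytoplasm and promotes their degradation. When the cascade is inactive, YAP and TAZ enter the nucleus and bind TEAD factors, which recognize a short DNA motif, and the complex activates genes such as CTGF, CYR61 and ANKRD1. LATS2, AJUBA and AMOTL2 are targets that also act back on the cascade. Messenger RNA levels, as measured here, do not report the phosphorylation or location of YAP and TAZ.

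Total counts ranged from 19446946 to 19838142 in the sgScr libraries, from 17582430 to 18807433 with sgPHF8-1 and from 17366120 to 19019118 with sgPHF8-3, so the controls were the deepest. Values per library are the normalized counts deposited by the authors. A gene was called when its Benjamini-Hochberg adjusted p in edgeR's quasi-likelihood test was under 0.05. PHF8 itself stood at 655, 606 and 634 normalized counts in the sgScr libraries, at 564, 571 and 565 with sgPHF8-1, and at 399.8, 387 and 434 with sgPHF8-3. Its log2 fold change was −0.16 ± 0.05 (SE; adjusted p = 0.0272) with sgPHF8-1 and −0.63 ± 0.06 (adjusted p = 6.4e-09) with sgPHF8-3. An sgRNA edit need not lower the transcript it disrupts, so these levels do not measure the loss of protein. The study described efficient PHF8 knockout by Western blot with both guides in this cell line. Among melanocyte lineage markers, SOX10 (2314 to 3046 counts) and MITF (194 to 290 counts) were present, whereas MLANA and TYR were at 0 in all 9 libraries and PMEL, DCT and S100B did not exceed 12 counts. Summed over the 7 markers, this lineage ranged from 2964 to 3104 normalized counts in sgScr, from 2611 to 2764 with sgPHF8-1 and from 2823 to 2886 with sgPHF8-3. SOX10 fell with both guides (log2 fold change −0.18 with sgPHF8-1 and −0.11 with sgPHF8-3), the latter call being lost under 3 of 14 alternative settings. MITF was called with neither guide (−0.14 ± 0.08 and 0.14 ± 0.08) but was higher with sgPHF8-3 than with sgPHF8-1 by 0.28 ± 0.08 (adjusted p = 0.0306), a call lost under 4 of 14. The part of depth and of these and the following markers in the results below was not tested. Fibroblast markers summed to 374 to 422, 389 to 427 and 318 to 363 normalized counts in the 3 groups, with DCN at 0 in all libraries and COL1A2 at up to 3 counts. Within that list PDGFRB, at 2 to 21 counts per library, fell with sgPHF8-1 (log2 fold change −1.86 ± 0.40, adjusted p = 0.00081), and LUM fell with sgPHF8-3 (−0.25 ± 0.07, adjusted p = 0.0216), which was lost under 5 of 14. Keratinocyte markers summed to 353 to 359, 342 to 371 and 332 to 372, mostly from KRT10, with KRT1 at 0 and KRT5 at up to 1 count. KRT14, at 13 to 47 counts per library, fell with both guides (−1.10 ± 0.25, adjusted p = 0.0013, and −0.90 ± 0.24, adjusted p = 0.0092), the latter call being lost without sgScr replicate B. The sgPHF8-1 replicate B library stood furthest from its own group, with 22427 genes detected against 23035 to 23229 in the other libraries. Counts without it are given beside the results.

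The promoters of CTGF and ANKRD1 are shown because these targets were both higher with each guide but by different amounts, and that of YAP1 because its transcript stayed near the control level. Of the 10 genes, 7 matched the RefSeq promoter table (GRCh38.p14), with 10 start sites in all. CYR61, TEAD1 and TEAD4 were not matched. The 250 bases before each start were searched on both strands for GGAATG, the core TEAD motif. Capitals mark each match. The CTGF window is chr6:131951373-131951622 (minus strand), the ANKRD1 window chr10:90921088-90921337 (minus strand) and the YAP1 window chr11:102110197-102110446 (plus strand).
CTGF: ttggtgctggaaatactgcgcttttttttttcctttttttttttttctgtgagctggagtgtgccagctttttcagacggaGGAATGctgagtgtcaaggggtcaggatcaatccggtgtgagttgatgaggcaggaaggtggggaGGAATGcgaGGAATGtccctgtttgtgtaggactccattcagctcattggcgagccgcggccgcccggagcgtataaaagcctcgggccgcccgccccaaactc
ANKRD1: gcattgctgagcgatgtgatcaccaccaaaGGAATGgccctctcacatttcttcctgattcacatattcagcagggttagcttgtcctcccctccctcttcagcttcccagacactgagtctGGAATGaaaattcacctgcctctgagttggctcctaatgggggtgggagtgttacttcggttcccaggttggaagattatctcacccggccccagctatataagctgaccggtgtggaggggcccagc
YAP1: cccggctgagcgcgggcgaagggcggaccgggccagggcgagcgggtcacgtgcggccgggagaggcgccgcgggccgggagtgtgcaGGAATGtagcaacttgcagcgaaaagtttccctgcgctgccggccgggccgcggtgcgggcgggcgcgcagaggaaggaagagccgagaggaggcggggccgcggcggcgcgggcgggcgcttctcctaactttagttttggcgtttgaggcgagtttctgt
The CTGF window held 3 matches, which began 169, 104 and 95 bases before the start. The ANKRD1 window held 2 matches, which began 220 and 128 bases before the start, and YAP1 had 1 that began 162 bases before it. A single match was also found before a second start site of AMOTL2 and a second start site of AJUBA, whereas neither WWTR1 window nor the LATS2 window held the letters. Among 35116 promoter windows of the same length, 11.9% held at least 1 match and 0.940% held 2 or more. An AP-1 motif (TGANTCA, both strands) was found in 1 of the 10 windows, that of ANKRD1, 195 to 189 bases before its start, against 6.57% of all windows. No CArG box, the motif of serum response factor, was found in the 10 windows, and 1.16% of all windows held one. These matches describe letters, not bound sites.

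With sgPHF8-1, 6 of the 10 genes were called against sgScr: CTGF, CYR61, ANKRD1 and TEAD4 were higher and WWTR1 and TEAD1 were lower. Over all tested genes, 30.9% were called in this comparison, 15.2% higher and 15.7% lower. With sgPHF8-3, 4 genes were called, namely CTGF, CYR61 and ANKRD1 as higher and WWTR1 as lower, where 19.3% of all genes were called, 9.48% higher and 9.78% lower. Between the guides, 3 genes were called, as CYR61 and WWTR1 were higher and ANKRD1 lower with sgPHF8-3 than with sgPHF8-1. The shares over all genes were then 10.6%, 5.83% higher and 4.74% lower. Since the genes were picked on these comparisons, nothing is read from the counts beyond the description. The median log2 fold change of the 10 genes was 0.06, 0.05 and 0.02 in these 3 comparisons, and over all genes it was 0.00, −0.00 and −0.00. Without the sgPHF8-1 replicate B library, the numbers called were 7, 5 and 2, and the shares of all genes called were 27.4%, 23.0% and 9.84%. Without sgPHF8-3 replicate C, only 1 gene, ANKRD1, was called between the guides, and 6.60% of all genes.

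**Figure D1:**
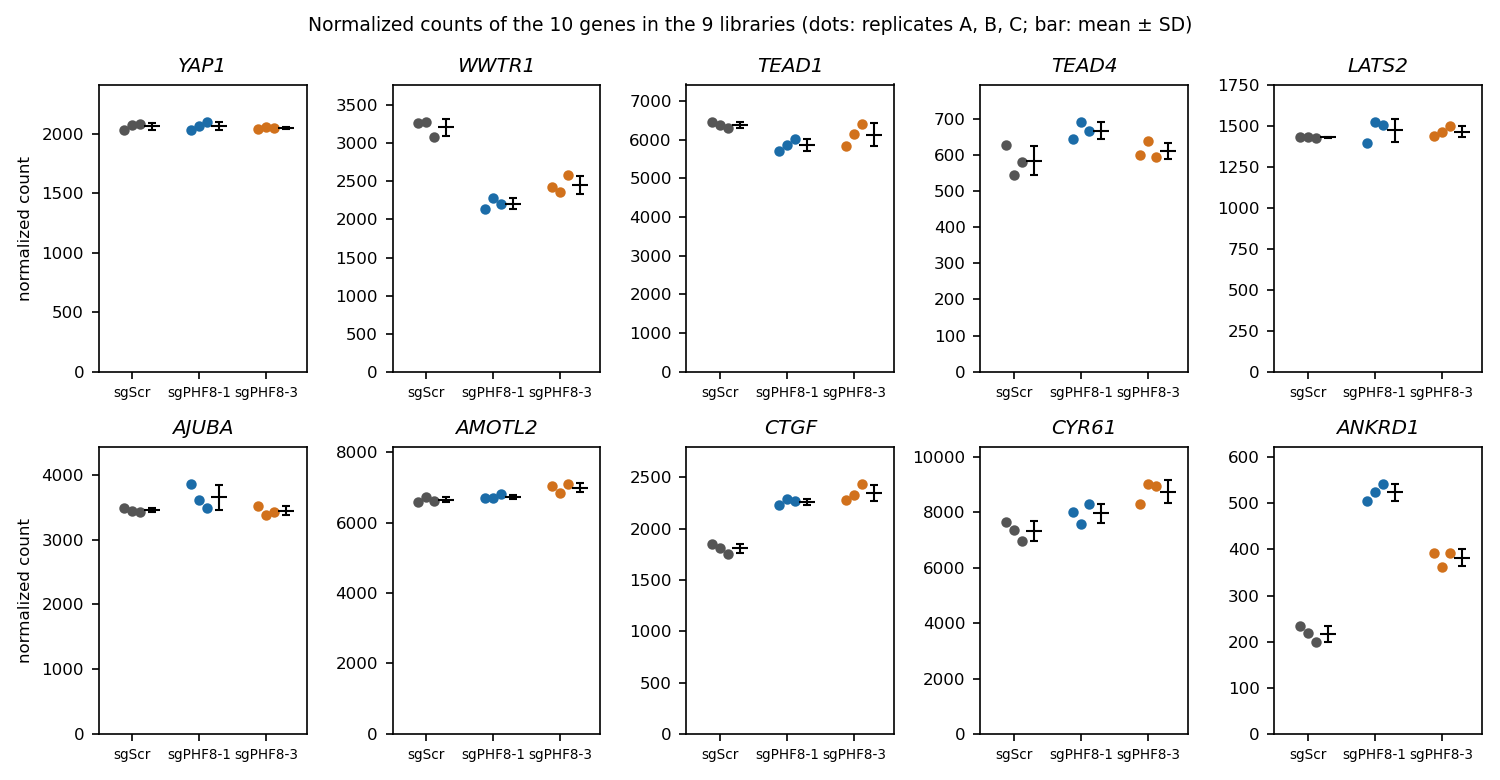
Normalized counts (y axis, from 0) of each of the 10 genes in the 3 groups (x axis); dots are the libraries A, B and C and the bar beside them is the mean ± SD. The 3 sgScr libraries of WWTR1 lie above, and those of CTGF and ANKRD1 below, all 6 libraries of the guide groups, while the YAP1 libraries lie together between 2030.4 and 2101 normalized counts.

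YAP1 and WWTR1 are paralogous coactivators, and their transcripts differed in these cells. Gene coordinates are given on GRCh37. WWTR1 (ENSG00000018408; chr3:149235022-149454501, minus strand) was at 3271, 3281 and 3082 normalized counts in the sgScr libraries. It was at 2132, 2276 and 2204 with sgPHF8-1 and at 2426, 2356 and 2580.4 with sgPHF8-3. All 6 libraries of the guide groups thus lay below all 3 controls, and the guide groups did not overlap each other, sgPHF8-1 being the lower. The log2 fold change was −0.54 ± 0.04 with sgPHF8-1 (1.46-fold lower) and −0.39 ± 0.04 with sgPHF8-3 (1.31-fold lower), and sgPHF8-3 exceeded sgPHF8-1 by 0.16 ± 0.04. This last call was lost without sgPHF8-1 replicate A or without sgPHF8-3 replicate C. An antisense gene, WWTR1-AS1, covers 9.05% of the WWTR1 exon bases and had 12 to 32 counts, against at least 2104 for WWTR1. The strand setting of the counting is not given in the sources used here, so reads in that stretch cannot be assigned to either gene.

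YAP1 (ENSG00000137693; chr11:101981178-102104155, plus strand) was at 2030.4, 2079 and 2086 normalized counts in sgScr, at 2031, 2065 and 2101 with sgPHF8-1, and at 2044, 2060.2 and 2052 with sgPHF8-3. The 3 groups overlapped throughout. Log2 fold changes were 0.00 ± 0.03 with sgPHF8-1 and −0.01 ± 0.03 with sgPHF8-3. An antisense gene covers 9.95% of its exon bases and had 0 to 3 counts. As both values come from the same library, a ratio of the pair does not depend on scaling. WWTR1 counts per YAP1 count were 1.61, 1.58 and 1.48 in sgScr, 1.05, 1.10 and 1.05 with sgPHF8-1, and 1.19, 1.14 and 1.26 with sgPHF8-3. The mean ± SD (n = 3) went from 1.56 ± 0.07 to 1.07 ± 0.03 with sgPHF8-1 and 1.20 ± 0.06 with sgPHF8-3.

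TEAD1 (ENSG00000187079; chr11:12695968-12966284, plus strand), the DNA-binding partner with the highest counts of its family here, was at 6454, 6382 and 6289.9 normalized counts in sgScr. It was at 5709, 5847 and 6007 with sgPHF8-1 and at 5834, 6144 and 6411 with sgPHF8-3. The sgPHF8-1 libraries lay below the controls and the sgPHF8-3 libraries overlapped both other groups. On the log2 scale the difference was −0.12 ± 0.03 with sgPHF8-1 and −0.06 ± 0.03, not called, with sgPHF8-3. TEAD4 (ENSG00000197905; chr12:3068496-3149842, plus strand) was at 627, 545 and 581 normalized counts in sgScr, at 643, 691 and 668 with sgPHF8-1, and at 601, 638 and 594 with sgPHF8-3. It differed from sgScr by 0.19 ± 0.06 (log2) with sgPHF8-1 and 0.06 ± 0.06, not called, with sgPHF8-3. The lowest sgPHF8-1 library exceeded the highest control by little, and the call was lost without sgScr replicate B. TEAD1 and TEAD4 thus lay on opposite sides of the controls with sgPHF8-1.

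The other TEAD genes and the VGLL genes, whose proteins bind TEAD in competition with YAP and TAZ, were read from a list of 6, of which 4 were tested. VGLL4, a repressor of TEAD activity, fell with both guides. It was at 1798, 1832 and 1821 normalized counts in sgScr, at 1597, 1652 and 1548 with sgPHF8-1, and at 1624, 1587 and 1569.8 with sgPHF8-3, with no overlap of either guide group with the controls. The change was −0.19 ± 0.03 on the log2 scale with each guide (adjusted p = 0.00014 with sgPHF8-1 and 0.00023 with sgPHF8-3). TEAD2 (log2 fold change −0.07 ± 0.06 and −0.14 ± 0.06), TEAD3 (0.06 ± 0.14 and 0.09 ± 0.14) and VGLL3 (−0.10 ± 0.07 and 0.10 ± 0.07) did not pass the test with sgPHF8-1 or sgPHF8-3. VGLL1 had no count in any library, and VGLL2, with 3 to 12 counts, was below the filter.

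LATS2, AJUBA and AMOTL2 are targets of YAP and TAZ that feed back on the cascade, and none of them was called against the controls with either guide. LATS2 (ENSG00000150457; chr13:21547175-21635725, minus strand), a kinase that phosphorylates YAP and TAZ, was at 1430.1, 1433 and 1425 normalized counts in sgScr. It was at 1392, 1522 and 1501 with sgPHF8-1 and at 1435, 1459.5 and 1497 with sgPHF8-3. Log2 fold changes were 0.04 ± 0.04 and 0.03 ± 0.04. The sgPHF8-1 libraries spread on both sides of the controls.

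AJUBA (ENSG00000129474; chr14:23440386-23451760, minus strand), a LIM protein that restrains LATS kinases, was at 3491, 3442 and 3435 normalized counts in sgScr, at 3857, 3619 and 3486 with sgPHF8-1, and at 3528, 3384 and 3435 with sgPHF8-3. The groups overlapped. Against sgScr, the log2 fold change was 0.08 ± 0.03 with sgPHF8-1 and −0.00 ± 0.03 with sgPHF8-3, and the former became a call without sgPHF8-1 replicate B or without sgPHF8-1 replicate C. AMOTL2 (ENSG00000114019; chr3:134074189-134094321, minus strand), an angiomotin that holds YAP at cell junctions, was at 6584, 6719 and 6618 normalized counts in sgScr. It was at 6696, 6706 and 6805 with sgPHF8-1 and at 7025, 6841 and 7088 with sgPHF8-3. Its difference from sgScr on the log2 scale was 0.02 ± 0.03 with sgPHF8-1. With sgPHF8-3 it was 0.07 ± 0.03, where all 3 libraries exceeded the controls, and it became a call without sgPHF8-1 replicate B or with only the groups compared in the fit.

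CTGF and CYR61 (now named CCN2 and CCN1) encode secreted matricellular proteins of the CCN family and are the targets most used as a readout of YAP and TAZ. CTGF (ENSG00000118523; chr6:132269316-132272512, minus strand) was at 1850.1, 1816 and 1755 normalized counts in sgScr. It was at 2227, 2285 and 2265 with sgPHF8-1 and at 2278, 2332 and 2433 with sgPHF8-3. All libraries of both guide groups exceeded the controls, and the guide groups overlapped each other. An antisense gene, LINC01013, covers 11.9% of the CTGF exon bases and had at most 2 counts. The log2 fold change was 0.32 ± 0.03 with sgPHF8-1 (1.25-fold) and 0.38 ± 0.03 with sgPHF8-3 (1.30-fold), and sgPHF8-3 differed from sgPHF8-1 by 0.06 ± 0.03, not called.

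CYR61 (ENSG00000142871; chr1:86046444-86050272, plus strand) was at 7663, 7366 and 6956 normalized counts in sgScr, at 8001, 7578 and 8287 with sgPHF8-1, and at 8291, 9012 and 8942 with sgPHF8-3. The sgPHF8-1 libraries overlapped the controls, while the sgPHF8-3 libraries lay above both other groups. The log2 fold change was 0.12 ± 0.04 with sgPHF8-1 and 0.26 ± 0.04 with sgPHF8-3. The call with sgPHF8-1 was lost without sgScr replicate B or C and without sgPHF8-1 replicate A or C. The call between the guides (0.14 ± 0.04) was lost without sgPHF8-1 replicate B, sgPHF8-3 replicate B or sgPHF8-3 replicate C. NOV, another CCN gene, had 314 to 332 normalized counts in sgScr, 398 to 459 with sgPHF8-1 and 354 to 399 with sgPHF8-3. It rose with both guides, by 0.43 ± 0.07 (adjusted p = 2.1e-05) and 0.22 ± 0.07 (adjusted p = 0.0245) on the log2 scale, and the latter call was lost under 4 of 14 alternatives. NOV was lower with sgPHF8-3 than with sgPHF8-1 (−0.21 ± 0.07, adjusted p = 0.0469), a call lost under 10 of 14. The other members of the CCN family, WISP1, WISP2 and WISP3, did not exceed 8 counts and were not tested.

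ANKRD1 (ENSG00000148677; chr10:92671853-92680844, minus strand), an ankyrin repeat protein of muscle and stressed cells and a strong target of YAP and TAZ, showed the largest fold change among the 10 genes with each guide. It was at 233, 218 and 198 normalized counts in sgScr, at 506, 524 and 541 with sgPHF8-1, and at 393, 362 and 392 with sgPHF8-3. The 3 groups did not overlap, sgPHF8-3 lying between the controls and sgPHF8-1. The log2 fold change was 1.27 ± 0.07 with sgPHF8-1 (2.41-fold) and 0.82 ± 0.07 with sgPHF8-3 (1.76-fold), and sgPHF8-3 was below sgPHF8-1 by −0.45 ± 0.06. CTGF and CYR61 had the opposite order of the guides, each with its highest mean in sgPHF8-3, although the guide groups overlapped for CTGF. ANKRD1 counts per CTGF count in the same library were 0.126, 0.120 and 0.113 in sgScr, 0.227, 0.229 and 0.239 with sgPHF8-1, and 0.172, 0.155 and 0.161 with sgPHF8-3. The mean ± SD (n = 3) was 0.120 ± 0.007, 0.232 ± 0.006 and 0.163 ± 0.009. CTGF counts per CYR61 count moved less, from 0.247 ± 0.005 to 0.284 ± 0.015 and 0.269 ± 0.009.

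**Figure D2:**
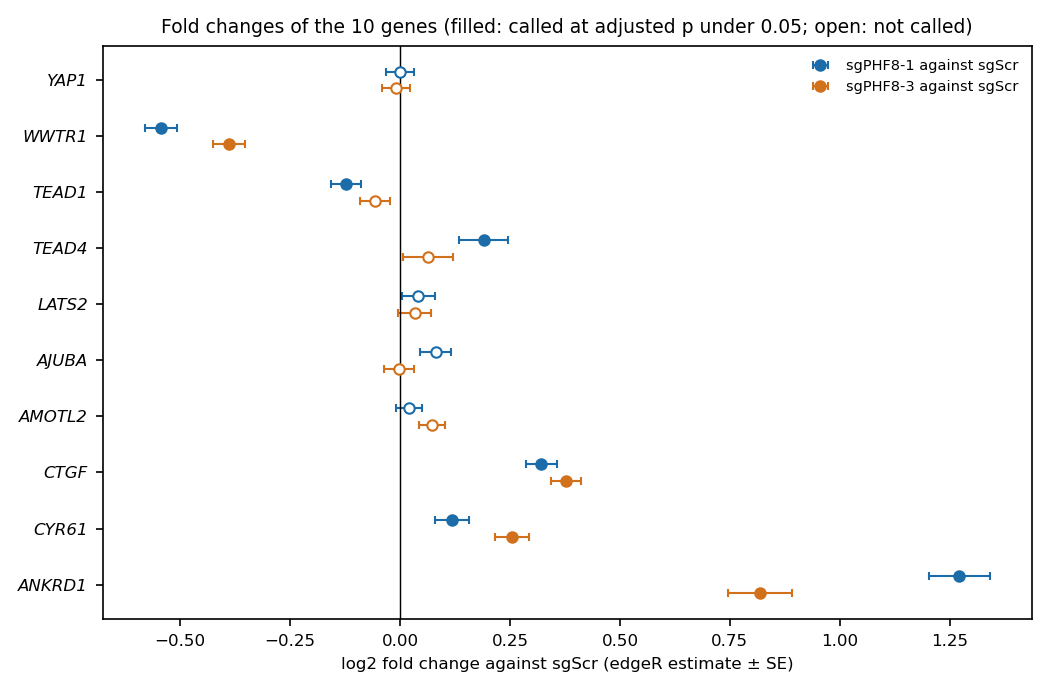
Log2 fold change against sgScr (x axis, edgeR estimate ± SE) of the 10 genes (y axis) with sgPHF8-1 (blue) and sgPHF8-3 (orange); filled symbols were called and open symbols were not. ANKRD1 lies at 1.27 and 0.82, CTGF at 0.32 and 0.38 and WWTR1 at −0.54 and −0.39, and the YAP1 symbols lie at 0.00 and −0.01.

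**Figure D3:**
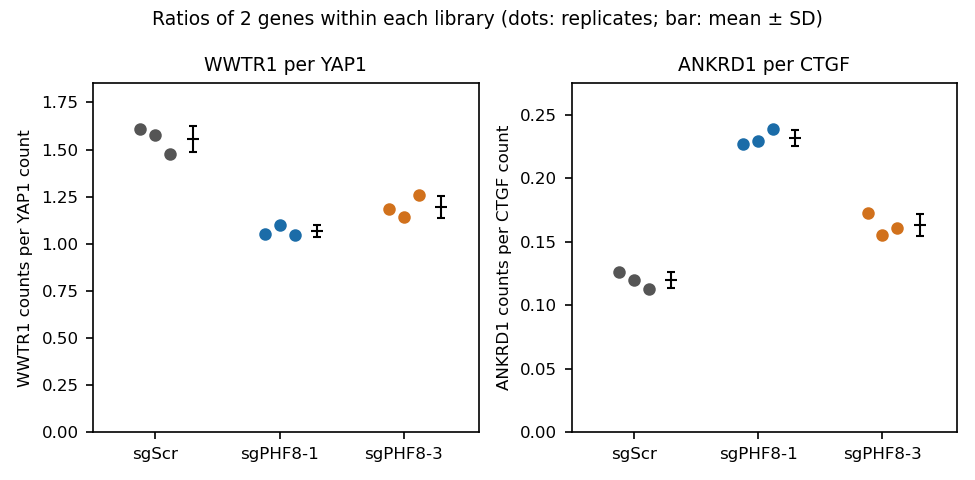
Ratio of normalized counts of a pair of genes within each library (y axis, from 0), WWTR1 per YAP1 on the left and ANKRD1 per CTGF on the right, in the 3 groups (x axis); dots are libraries and bars the mean ± SD. For both ratios the sgPHF8-3 libraries lie between the other groups without overlap.

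Levels of different genes were compared per kilobase of exon. In the sgScr libraries CYR61 was highest, at 1982 ± 96 normalized counts per kb (SD, n = 3), followed by AMOTL2 at 1025 ± 11 and CTGF at 773 ± 20.5. TEAD1 (596 ± 8) and AJUBA (587 ± 5) were neighbors whose libraries overlapped. WWTR1 was at 384 ± 13 and YAP1 at 327 ± 5 normalized counts per kb. TEAD4 (257 ± 18) and LATS2 (255 ± 1) overlapped, and ANKRD1 was lowest at 121 ± 10. With sgPHF8-1, WWTR1 per kb of all exons was at 264 ± 9, below YAP1 at 327 ± 5. When the length of the canonical transcript was used instead, WWTR1 (438 ± 14) remained above YAP1 (382 ± 6), so the order of this pair depended on the length chosen. By canonical length in sgScr, AJUBA (829 ± 7) also lay above CTGF (773 ± 20.5) and TEAD1 (677 ± 9), and CYR61 was at 3217 ± 156. With sgPHF8-1, ANKRD1 was at 293 ± 10 normalized counts per kb, next to TEAD4 at 293 ± 11. LATS1, the other LATS kinase, was at 62.8 in sgScr on the same scale, and TEAD2 and TEAD3 were at 193 and 22.8.

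The wider pathway was read from 4 lists with 57 genes outside the 10, of which 54 were tested. The lists were written from general knowledge but with earlier results of these data known, so their calls are descriptions. With sgPHF8-1, 8 of them rose and 22 fell (14.8% and 40.7% of the 54, against 15.2% and 15.7% of all genes). With sgPHF8-3, 7 rose and 8 fell (13.0% and 14.8%, against 9.48% and 9.78%). Between the guides, 11 were higher and 2 lower with sgPHF8-3 (20.4% and 3.70%, against 5.83% and 4.74%). The genes called in the same direction with both guides, which share their controls, are given below with the values of each comparison. The median log2 fold change of the 54 genes was −0.07, −0.02 and 0.04 in the 3 comparisons. Without the sgPHF8-1 replicate B library, 24, 19 and 15 of them were called, with 27.4%, 23.0% and 9.84% of all genes. Without sgScr replicate C, 9 in place of 15 were called with sgPHF8-3, while the share of all genes went from 19.3% to 13.9%. Without sgPHF8-3 replicate B or C, 8 in place of 13 were called between the guides, while the share of all genes went from 10.6% to 6.20% and 6.60%.

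Among 20 tested Hippo kinases and their activators, 2 rose and 9 fell with sgPHF8-1 (10% and 45% of the list, against 15.2% and 15.7% of all genes), and 2 rose and 3 fell with sgPHF8-3 (10% and 15%, against 9.48% and 9.78%). WWC1 and FRMD6, which activate the cascade, rose. WWC1 went from 1408 to 1449 normalized counts in sgScr to 1748 to 1803 with sgPHF8-1 and 1560.3 to 1701 with sgPHF8-3. Its log2 fold change was 0.31 ± 0.04 (adjusted p = 3.6e-07) and 0.21 ± 0.04 (adjusted p = 0.00023), and that of FRMD6 was 0.19 ± 0.03 and 0.15 ± 0.03. NF2 (merlin), which brings LATS kinases to the membrane, fell by 0.18 and 0.10 on the log2 scale. MAP4K4, a kinase that can phosphorylate LATS, fell by 0.11 and 0.14, and PTPN14, a phosphatase that binds YAP and is itself a target gene, fell by 0.29 and 0.16. PTPN14 with sgPHF8-3 was called although its highest library, replicate C at 2877 normalized counts, overlapped the sgScr range of 2844 to 3165. That call was lost without sgScr replicate C, sgPHF8-3 replicate A or sgPHF8-3 replicate B. The call of NF2 with sgPHF8-3 was lost without sgScr replicate C, and that of MAP4K4 with sgPHF8-1 without sgScr replicate B.

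LATS1, which phosphorylates YAP and TAZ alongside LATS2, fell with sgPHF8-1. It was at 532, 533 and 534 normalized counts in sgScr, at 390.3, 409 and 417 with sgPHF8-1, and at 438, 525 and 535 with sgPHF8-3. Replicate A of sgPHF8-3 was low and the other libraries of that group were at the level of the controls. On the log2 scale LATS1 changed by −0.39 ± 0.07 with sgPHF8-1 (adjusted p = 4.3e-05) and was at −0.10 ± 0.06 with sgPHF8-3 (adjusted p = 0.311), and the guides differed by 0.30 ± 0.07 (adjusted p = 0.0047). WWC3, a relative of WWC1, followed with −0.41 ± 0.05 and −0.13 ± 0.05 (adjusted p = 0.0522 with sgPHF8-3), and the guides differed by 0.28 ± 0.05 (adjusted p = 0.00028). TAOK3, a kinase upstream of the cascade, was at −0.25 ± 0.06 and 0.02 ± 0.06, with a difference of 0.27 ± 0.06 between the guides (adjusted p = 0.0036). The difference between the guides passed the test for all 3 of these genes, but they were named for their large changes, which favors such a difference. Others of the list were also called with sgPHF8-1 and not with sgPHF8-3. Of these, MAP4K3 differed between the guides (adjusted p = 0.0259, lost under 6 of 14 alternatives), while MOB1A (adjusted p = 0.0897) and TAOK1 (adjusted p = 0.696) did not.

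The next list held 14 junction scaffolds and inhibitors of YAP, but also proteins that oppose the cascade, so its counts mix genes of opposite effect. With sgPHF8-1, 1 rose and 7 fell (7.14% and 50% of the list, against 15.2% and 15.7% of all genes). With sgPHF8-3, 1 rose and 3 fell (7.14% and 21.4%, against 9.48% and 9.78%). SLMAP, part of a phosphatase complex that opposes the cascade, rose by 0.12 ± 0.03 and 0.14 ± 0.03 on the log2 scale. LIMD1, a LIM protein related to AJUBA, fell by 0.12 and 0.13, CTNNA1 (alpha-catenin) by 0.10 and 0.08, and CSNK1E, a casein kinase, by 0.09 with each guide. These last 3 were small and near the threshold with sgPHF8-3 (adjusted p = 0.0149, 0.0421 and 0.0487), and each call was lost under at least 5 of 14 alternatives. With sgPHF8-1 the call of CSNK1E was lost under 5, that of LIMD1 under 3 and that of CTNNA1 under 2 of the 14. AMOT, the angiomotin related to AMOTL2, was at 709, 635 and 669 normalized counts in sgScr, 553, 542 and 587 with sgPHF8-1, and 667, 664 and 656 with sgPHF8-3. It fell with sgPHF8-1 (−0.26 ± 0.05, adjusted p = 0.00047), stood at −0.02 ± 0.05 with sgPHF8-3 (adjusted p = 0.852), and differed between the guides by 0.24 ± 0.05 (adjusted p = 0.0043). The protocadherins FAT4 and FAT1, upstream regulators of the pathway, were at −0.31 ± 0.10 and −0.17 ± 0.04 with sgPHF8-1, both called. With sgPHF8-3 they were at −0.23 ± 0.10 and −0.06 ± 0.04, not called, and the difference between the guides did not pass the test (adjusted p = 0.697 and 0.0871). The FAT4 call was lost without sgScr replicate A or B and without sgPHF8-1 replicate A or B.

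Among 17 further target genes of YAP and TAZ, 5 rose and 6 fell with sgPHF8-1 (29.4% and 35.3% of the list, against 15.2% and 15.7% of all genes), and 4 rose and 2 fell with sgPHF8-3 (23.5% and 11.8%, against 9.48% and 9.78%). CCDC80, which encodes a secreted matrix protein, had the pattern of ANKRD1 across the guides. It was at 1017, 1052 and 1046 normalized counts in sgScr, at 1885, 1868 and 1773 with sgPHF8-1, and at 1479, 1486 and 1486 with sgPHF8-3. On the log2 scale CCDC80 rose by 0.83 ± 0.04 and 0.51 ± 0.04 (adjusted p = 3e-15 and 2.2e-10), with sgPHF8-3 below sgPHF8-1 by −0.31 ± 0.04 (adjusted p = 1.2e-06). GADD45A, a gene of the response to DNA damage and stress, rose by 0.40 ± 0.04 and 0.55 ± 0.04 and was higher with sgPHF8-3 by 0.15 ± 0.03 (adjusted p = 0.0067), the order of CTGF and CYR61. FJX1 rose by 0.39 ± 0.04 and 0.26 ± 0.04. It was also lower with sgPHF8-3 than with sgPHF8-1 (−0.13 ± 0.04, adjusted p = 0.0228), a call lost under 4 of 14 alternatives. CRIM1, a transmembrane protein that binds bone morphogenetic proteins, rose by 0.24 ± 0.03 with each guide. ARHGEF17 fell by 0.18 and 0.15, the latter lost under 4 of 14 alternatives.

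FOXF2, a forkhead factor, rose with sgPHF8-1 (0.31 ± 0.07, adjusted p = 0.0021) and was at 0.13 ± 0.08 with sgPHF8-3 (adjusted p = 0.232), and the difference between the guides did not pass the test (adjusted p = 0.137). NT5E, the ectonucleotidase CD73, fell by 0.18 with sgPHF8-1 (adjusted p = 3.8e-05), was at −0.01 ± 0.03 with sgPHF8-3 (adjusted p = 0.906), and differed between the guides by 0.17 ± 0.03 (adjusted p = 0.00034). ASAP1 was at −0.14 ± 0.05 with sgPHF8-1 (adjusted p = 0.0486), a call lost under 8 of 14 alternatives.

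**Figure D4:**
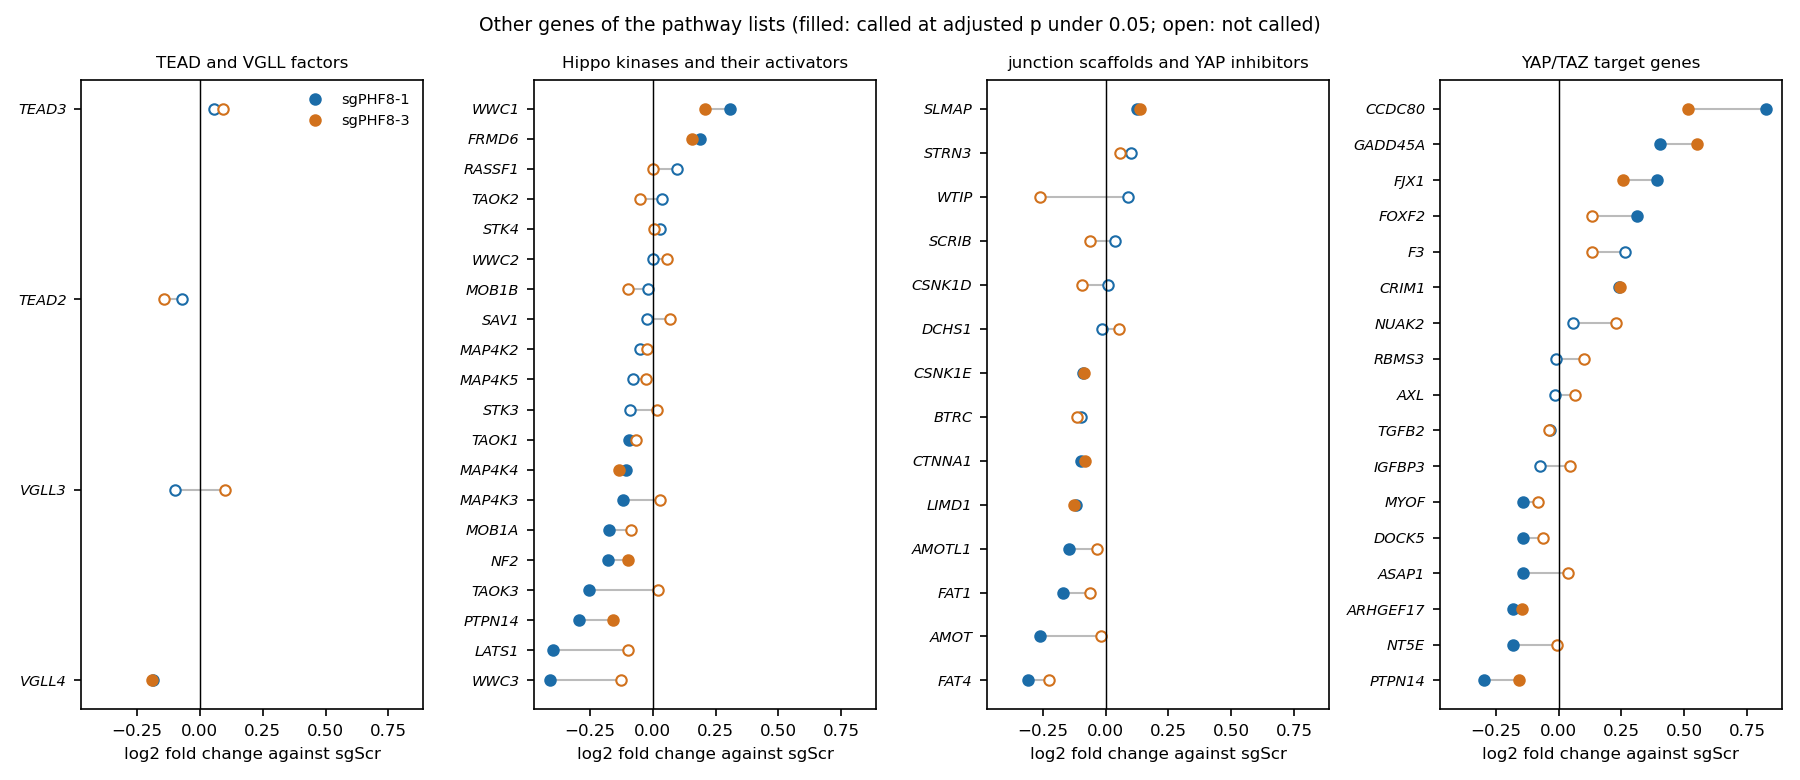
Log2 fold change against sgScr (x axis) of the tested genes of the 4 lists outside the 10 genes, 1 panel per list, with sgPHF8-1 in blue and sgPHF8-3 in orange; filled symbols were called and open symbols were not, and PTPN14 stands in both lists that hold it. Kinases and scaffolds called with sgPHF8-1 and not with sgPHF8-3, such as LATS1 at −0.39 and AMOT at −0.26, have open sgPHF8-3 symbols nearer to 0 (−0.10 and −0.02), and CCDC80 lies at 0.83 and 0.51 and GADD45A at 0.40 and 0.55.

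CTGF and several other targets also respond to TGFβ, so a list of 6 tested genes that respond to TGFβ was read beside them. With sgPHF8-1, 1 rose and 4 fell (16.7% and 66.7%, against 15.2% and 15.7% of all genes). With sgPHF8-3, 0 rose and 3 fell (0% and 50%, against 9.48% and 9.78%). TGFBI and LTBP2, matrix proteins, and PMEPA1, a membrane protein that restrains TGFβ signaling, fell with both guides. PMEPA1 went from 8771, 9037 and 8781 normalized counts in sgScr to 5385, 5914 and 5849.7 with sgPHF8-1 and 6785, 6594 and 6479 with sgPHF8-3. The log2 change of PMEPA1 was −0.63 ± 0.03 and −0.42 ± 0.03 (adjusted p = 6.8e-14 and 6.5e-10). TGFBI was at −0.18 ± 0.03 and −0.31 ± 0.03, and LTBP2 at −0.16 ± 0.04 and −0.18 ± 0.04. SKIL fell with sgPHF8-1 by 0.10 (adjusted p = 0.0424), a call lost under 7 of 14 alternatives, and SMAD7 was not called (0.18 ± 0.08 and 0.04 ± 0.08). CTGF was thus higher with both guides while PMEPA1, TGFBI and LTBP2 were lower with both. The study had already reported lower TGFBI after PHF8 knockout.

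Profiles over the 9 libraries were compared by the root mean square difference between log2 normalized counts centered on each gene's mean, with 1 count added. Among 14614 genes, those most like ANKRD1 were UCA1 (0.116), JDP2 (0.137), SPP1 (0.144), PAX8-AS1 (0.150) and HOXB9 (0.165). UCA1 is a long noncoding RNA, JDP2 a repressor of AP-1 and SPP1 the secreted protein osteopontin. SPP1 went from a mean of 349.7 normalized counts in sgScr to 999.9 with sgPHF8-1 and 623 with sgPHF8-3. PAX8-AS1 is annotated as an antisense gene, so its counts are uncertain while the strand setting is unknown. Those most like CTGF were MCCC1 (0.0441), MCTP1 (0.0467), IL24 (0.0473), DKK1 (0.0476) and TRIB3 (0.0537). DKK1, a secreted inhibitor of Wnt signaling, went from a mean of 4830.2 normalized counts to 6051 and 5996.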

How the data were processed

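RNA from 9 SKMEL-147 libraries was depleted of ribosomal RNA, made into ScriptSeq libraries, aligned to hg19 (GRCh37) with STAR and counted with HTSeq by the authors. The annotation and strand setting of the counting are not given in the sources used here. The authors deposited raw counts per gene under Ensembl identifiers, and a signal table of normalized counts under symbols, which are the raw counts divided by DESeq2 size factors. Multiplying back gave whole reads within 0.01 in 100% of values, and the tables were joined on these counts and on symbols (27 symbols had been turned into dates). Raw counts were tested with edgeR 4.0.16 (R 4.3.3): TMM scaling, filterByExpr, 1 mean per group over all 9 libraries, quasi-likelihood F test, Benjamini-Hochberg adjustment over 14614 genes, called under 0.05. The fit left 6 residual degrees of freedom, and the common biological coefficient of variation was 2.87%. Errors of fold changes are standard errors derived from the test. They are the absolute log2 fold change divided by the square root of its F statistic. The test was run on simulated data first. Gene coordinates and exon lengths come from GENCODE on GRCh37.

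The 10 genes and the lists were chosen with earlier results of these data known. From each list, genes called alike with both guides and up to 3 others with the largest change are named, and short lists are named whole, except for an item that is not reported here. The 5 genes nearest to ANKRD1 and to CTGF are named. PHF8 is named as the targeted gene, and SOX10 and MITF as cell type markers. Replicates of a group differed by more than sampling noise in every pair. Alternatives were DESeq2 1.42.0, median ratio scaling, no filter, a replicate block, the compared groups alone and each library left out.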

Additional observations from a re-analysis of the deposited data

How the results depend on the processing

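The fold changes of the 10 genes moved by less than 1 SD between replicates in all 420 recomputations (30 values under 14 alternatives), and no called value changed sign. A group mean of 3 libraries can hardly move that far when 1 is left out, and the other settings refit the same counts. This bound is therefore a weak check. Leaving out 1 library moved 3 counts of calls by more than 1.5 times: the 10 genes between the guides (3 called; 1 to 4), the other pathway genes with sgPHF8-3 (15 called; 9 to 19) and the other pathway genes between the guides (13 called; 8 to 15). With DESeq2, 12 other pathway genes were called with sgPHF8-3 and 9 between the guides, and over all genes 1733 and 874 were called, against 2814 and 1544 with edgeR. With the letters A to C as a replicate block, 6, 4 and 3 of the 10 genes and 29, 13 and 13 of the other pathway genes were called, with 30.1%, 18.5% and 10.1% of all genes. The letters did not pair the libraries: none of 9 correlations between deviations of same-letter libraries exceeded 0.1 (−0.083 to 0.053), and 5 of 18 comparisons placed a library closest to its own letter. With 3 libraries per group, the standard error of a log2 fold change among the 10 genes was 0.03 to 0.07.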
